A study of Mus musculus with 2 samples.

Results

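The 6 genes described here, Mirlet7a-1, Mirlet7a-2, Mirlet7c-1, Mirlet7c-2, Mirlet7f-1 and Mirlet7f-2, are the let-7 genes of the mouse whose mature microRNA is encoded at 2 loci. They were found by gene symbol in the GENCODE M21 annotation and are 6 of 2202 microRNA genes in the tables. The counts came from small-RNA sequencing of adrenal gland tissue of wild-type C57BL/6J mice, in 2 libraries of 1 group that are named biological replicates 2 and 1 in the labels. No treatment or other genotype is part of the study, and the age of the animals is given as unknown. Both libraries carry the same donor identifier, and no label states that separate animals were used, so differences between them may be technical. The sex is called female in one label and not collected in another.

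let-7 was first described in Caenorhabditis elegans as a regulator of developmental timing, and its mouse relatives are abundant in differentiated tissues. A primary transcript is cut to a hairpin in the nucleus and to a short duplex in the cytoplasm, from which usually the 5p strand is loaded into an Argonaute protein and pairs with target mRNAs through its seed, bases 2 to 8. The RNA-binding proteins LIN28A and LIN28B block the processing of let-7 precursors, and known targets include Hmga2 and the Ras genes. The copies of each pair lie in separate clusters, so the same mature let-7a, let-7c or let-7f can come from different transcripts.

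The 3 mature sequences are shown because all results below turn on what the copies share. They are the RefSeq sequences on GRCm38.p6, the assembly also called mm10, written 5′ to 3′ with the seed in capitals.
mmu-let-7a-5p: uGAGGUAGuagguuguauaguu
mmu-let-7c-5p: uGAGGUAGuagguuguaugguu
mmu-let-7f-5p: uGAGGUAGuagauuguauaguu
Each is 22 bases long and carries the same seed. Counted from the 5′ end, let-7c-5p differs from let-7a-5p by A19G and let-7f-5p differs from it by G12A, so let-7c-5p and let-7f-5p differ from each other at both of these positions. All 6 other family genes of the table carry this seed too, and so do the mature products of Mir7k and Mir1961. These genes had 10 and 0 counts in replicate 2 and 21 and 3 counts in replicate 1.

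The copies of a pair part from each other directly outside the mature sequence. The lines below give the 5p sequence of each gene with 3 bases before it and 4 bases after it, and the capitals mark the 4 bases that follow.
Mirlet7a-1: ggaugagguaguagguuguauaguuUUAG
Mirlet7a-2: gguugagguaguagguuguauaguuUAGA
Mirlet7c-1: gguugagguaguagguuguaugguuUAGA
Mirlet7c-2: gggugagguaguagguuguaugguuUUGG
Mirlet7f-1: gagugagguaguagauuguauaguuGUGG
Mirlet7f-2: ggaugagguaguagauuguauaguuUUAG
The let-7a copies are identical over 23 bases, the let-7c copies over 23 bases and the let-7f copies over 22 bases. The base before the mature sequence differs in all 3 pairs. After it, the let-7a and let-7c copies share 1 more base, and the let-7f copies share none. A read that holds only the shared bases matches both loci equally well. Over the whole hairpins, the aligned copies were 68.9% identical for let-7a, 67.3% for let-7c and 72.2% for let-7f.

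The 3p strands, the partners of the 5p strands in the duplex, tell most copies apart.
mmu-let-7a-1-3p: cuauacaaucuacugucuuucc
mmu-let-7a-2-3p: cuguacagccuccuagcuuuc
mmu-let-7c-1-3p: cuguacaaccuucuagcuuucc
mmu-let-7c-2-3p: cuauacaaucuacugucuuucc
mmu-let-7f-1-3p: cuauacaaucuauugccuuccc
mmu-let-7f-2-3p: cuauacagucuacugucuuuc
The exception crosses the pairs. The 3p sequence of Mirlet7a-1 is the same as that of Mirlet7c-2, and these loci stay identical over 26 bases around it. For Mirlet7a-1 and Mirlet7c-2, both the 5p and the 3p product are therefore found at another member of the group. A count in the tables is for a whole hairpin gene, so 5p and 3p reads are not told apart.

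Sequencing depth was 14457994 reads in replicate 2 and 18743064 in replicate 1. Of these, 6570375 and 9137907 were assigned to a microRNA gene in sense orientation. Multiply aligned reads stand apart from the genes and numbered 5210526 in replicate 2 and 6721333 in replicate 1, which is 36.0% and 35.9% of the reads. They amount to 0.793 and 0.736 reads per gene count. How many of them came from let-7a, let-7c or let-7f is not recorded, so the levels below are those of the uniquely assigned reads and do not measure the mature microRNAs. Levels are given as CPM, counts per 1000000 gene counts. A sequenced read covers a mature product whole, so counts were not divided by gene length. Divided by hairpin length, which runs from 83 to 96 bases in the group, the 6 genes kept the same order.

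All 6 genes were counted in both libraries, and together they held a small part of the family's uniquely assigned reads. Their summed level was 11302 CPM in replicate 2 and 11218 CPM in replicate 1, while the 6 other family genes, Mirlet7b, Mirlet7d, Mirlet7e, Mirlet7g, Mirlet7i and Mir98, summed to 292609 and 308112 CPM. The duplicated genes thus held 3.72% of the uniquely assigned let-7 reads in replicate 2 (Clopper-Pearson 95% interval 3.69 to 3.75) and 3.51% in replicate 1 (3.49 to 3.53). These intervals, like all counting intervals here, cover counting error only. Reads that match both copies of a pair equally well are not in these shares, so the shares do not measure mature let-7a, let-7c or let-7f. Within the group, the let-7f copies held 70.1% ± 0.400 of the counts (SD, n = 2), the let-7c copies 22.5% ± 0.555 and the let-7a copies 7.40% ± 0.156. The remaining annotated let-7 genes, Mir7j and Mir7k, had 123 and 10 counts in replicate 2 and 165 and 21 counts in replicate 1.

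**Figure D1:**
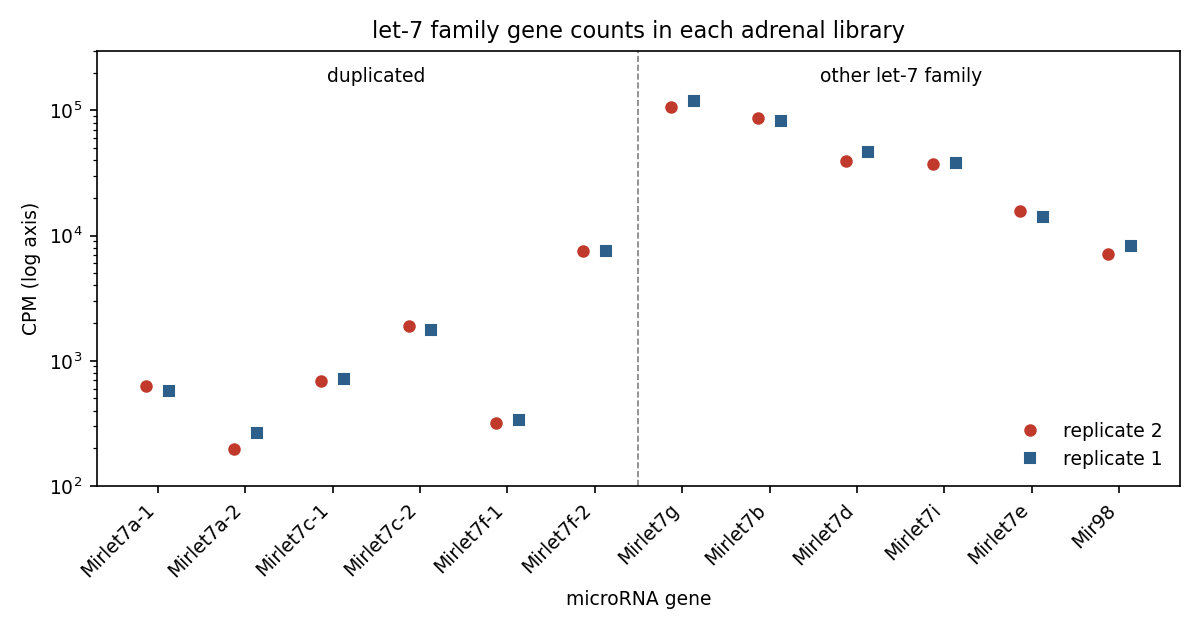
Level of each let-7 family gene in CPM on a log axis, with 1 point per library and no error bars. Of the duplicated genes on the left, Mirlet7f-2 near 7567 CPM reaches the lowest of the other family genes on the right, Mir98, and the other 5 lie below all of them.

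Mirlet7f-2 led the group. It had 49758 counts in replicate 2 and 69089 in replicate 1, or 7573 and 7561 CPM, a mean of 7567 ± 8.75 CPM (SD, n = 2). These libraries were nearly equal, and the gene ranked 24 among all microRNA genes in both. It lies on chromosome X at 151912346-151912428 of mm10, on the plus strand and inside an intron of Huwe1, which encodes a ubiquitin ligase. Its level fell within the range of Mir98, the least counted of the other family genes, at 7158 and 8253 CPM.

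Mirlet7c-2 followed at 12464 counts in replicate 2 and 16130 in replicate 1, which is 1897 and 1765 CPM and a mean of 1831 ± 93.2 CPM (rank 52). It lies on chromosome 15 at 85706603-85706697 on the plus strand, within an exon of the noncoding gene Lncppara. The other let-7c gene, Mirlet7c-1, had 4523 and 6515 counts, or 688 and 713 CPM, and a mean of 701 ± 17.4 CPM (rank 94). It lies on chromosome 16 at 77599657-77599750 on the plus strand, in an intron of the noncoding host gene Mir99ahg and opposite an intron of Gm11146. The let-7c genes did not overlap in level in these libraries.

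The let-7a genes and Mirlet7f-1 were the lowest. Mirlet7a-1 had 4109 counts in replicate 2 and 5281 in replicate 1, or 625 and 578 CPM, with a mean of 602 ± 33.6 CPM (rank 101). It lies on chromosome 13 at 48538179-48538272 on the minus strand, within an exon of the noncoding gene 6720427I07Rik. Mirlet7f-1, only 262 bases away at 48537829-48537917 within an exon of the same gene, had 2102 and 3082 counts, or 320 and 337 CPM, with a mean of 329 ± 12.3 CPM (rank 122).

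Mirlet7a-2 was the lowest of the 6. It had 1303 counts in replicate 2 and 2416 in replicate 1, or 198 and 264 CPM, with a mean of 231 ± 46.7 CPM (rank 144). It lies on chromosome 9 at 41536716-41536811 on the plus strand, in introns of the noncoding genes 3110039I08Rik and Gm49317. In the order Mirlet7f-2, Mirlet7c-2, Mirlet7c-1, Mirlet7a-1, Mirlet7f-1, Mirlet7a-2, no neighbouring genes overlapped in their values over the libraries. The narrowest step was from Mirlet7c-1 to Mirlet7a-1, a ratio of means of 1.16, and the widest was from Mirlet7f-2 to Mirlet7c-2, a ratio of 4.13.

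In each pair one copy took most of the uniquely assigned reads, and it was the same copy in both libraries. Mirlet7f-2 held 95.9% of the let-7f counts in replicate 2 (Clopper-Pearson 95% interval 95.8 to 96.1) and 95.7% in replicate 1 (95.6 to 95.9). The log2 ratio of Mirlet7f-1 over Mirlet7f-2 was -4.57 in replicate 2 and -4.49 in replicate 1, a mean of -4.53 ± 0.056 (SD, n = 2), so the X-linked copy was counted 23.0-fold more often. An exact test of the direction of this ratio, with the 2 libraries as its units, cannot give a p below 0.5, and none was made. The hairpins of this most unequal pair are shown with the shared mature sequence in capitals.
Mirlet7f-1: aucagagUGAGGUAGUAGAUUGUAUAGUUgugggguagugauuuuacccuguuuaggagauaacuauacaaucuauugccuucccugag
Mirlet7f-2: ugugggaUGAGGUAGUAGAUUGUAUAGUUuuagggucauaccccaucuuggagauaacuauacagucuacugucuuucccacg

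The let-7c and let-7a pairs were less unequal. Mirlet7c-2 held 73.4% of the let-7c counts in replicate 2 (72.7 to 74.0) and 71.2% in replicate 1 (70.6 to 71.8). The log2 ratio of Mirlet7c-1 over Mirlet7c-2 was -1.46 in replicate 2 and -1.31 in replicate 1, a mean of -1.39 ± 0.109. Mirlet7a-1 held 75.9% of the let-7a counts in replicate 2 (74.8 to 77.1) and 68.6% in replicate 1 (67.6 to 69.6), with a log2 ratio of Mirlet7a-1 over Mirlet7a-2 of 1.66 and 1.13 and a mean of 1.39 ± 0.374. The let-7a ratio thus varied most between the libraries, and the let-7f ratio least. The copy with more counts was the one numbered 1 for let-7a and the one numbered 2 for let-7c and let-7f.

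**Figure D2:**
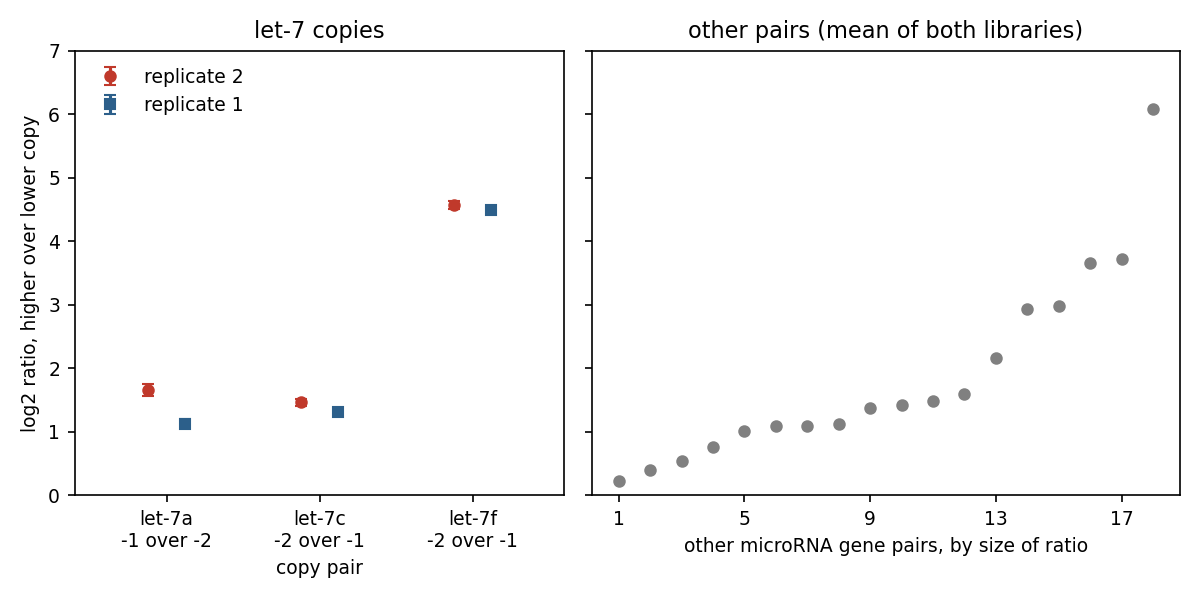
Left, log2 ratio of the more over the less counted copy in each library for the 3 let-7 pairs, with exact 95% counting intervals. Right, the same ratio as the mean of both libraries for 18 other microRNA gene pairs with a shared mature sequence, in rising order. Only pairs with at least 10 counts of each copy in both libraries are shown, which leaves out the most unequal pairs. The let-7a and let-7c pairs lie near the middle of these other pairs and the let-7f pair, at 4.53, lies above all but 1 of the 18.

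Unequal counts between copies were common among microRNA genes in these tables. RefSeq mature sequences were found in the hairpins of 1250 genes, of which 348 share an exact mature sequence with another gene, the 6 let-7 genes included. In 27 other sets of 2 genes with at least 20 counts in each library, 18 had at least 10 counts of each copy in both libraries. Their absolute log2 ratio between copies ran from 0.23 to 6.08 with a median of 1.40. Pairs with a copy under 10 counts are not in this range, which therefore leaves out the most unequal pairs. Of these 18 pairs, 1 was more unequal than let-7f, while 9 were more unequal than let-7a and the same number than let-7c.

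The bases after the mature sequence, shown in capitals above, ordered the copies in the same way in all 3 pairs. At the first position after the mature sequence at which the copies differ, the more counted copy has U (Mirlet7a-1, Mirlet7c-2 and Mirlet7f-2), and the less counted copy has A (Mirlet7a-2 and Mirlet7c-1) or G (Mirlet7f-1). The same position was looked up in the other sets of 2 genes, after the let-7 pairs had been seen. Of 29 shared sequences in those sets, 16 have U in 1 copy and another base in the other. The copy with U was the more counted in both libraries for 11 of the 16, and the other copy for 5, which are Mir29b-1, Mir101a, Mir125b-2, Mir129-2 and Mir219a-1. Unlike the range of ratios above, this tally keeps pairs with a copy under 10 counts, and both of its sides hold such pairs. Some of the 29 sequences come from the same pair or lie opposite each other, so the 29 are not separate observations. The part of this base in the counts was not tested.

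Each duplicated gene was also set beside the microRNA genes on the same strand within 10 kb, which are thought to share its primary transcript. On chromosome 13, Mirlet7a-1 and Mirlet7f-1 lie 2065 and 1715 bases from Mirlet7d, a let-7 gene with a mature sequence of its own. Mirlet7a-1, at 625 and 578 CPM in replicates 2 and 1, was set against 39823 and 46149 CPM of Mirlet7d, a mean log2 ratio of -6.16 ± 0.231 (SD, n = 2). For Mirlet7f-1 over Mirlet7d the log2 ratio was -6.96 in replicate 2 and -7.10 in replicate 1, with a mean of -7.03 ± 0.097. Mirlet7d was thus counted 71.3-fold more often than Mirlet7a-1 and 131-fold more often than Mirlet7f-1. The ratios to cluster partners here and below are of uniquely assigned reads. Reads that match both copies of a pair equally well are missing from the duplicated genes, so these ratios do not compare mature products. Between the duplicated neighbours, the log2 ratio of Mirlet7a-1 over Mirlet7f-1 was 0.97 in replicate 2 and 0.78 in replicate 1.

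The let-7c genes and Mirlet7a-2 also lay below the partners in their clusters. Mirlet7c-2, with 1897 and 1765 CPM, lies 622 bases from Mirlet7b, which had 86699 and 81805 CPM. The log2 ratio was -5.51 in replicate 2 and -5.53 in replicate 1, a mean of -5.52 ± 0.014, and it varied least between the libraries of the 6 ratios to partners outside the group. Mirlet7c-1 lies 657 bases from Mir99a, a member of the miR-99/100 family, with a log2 ratio of -5.18 and -4.80 and a mean of -4.99 ± 0.268. Mirlet7a-2 lies 5212 bases from Mir100, of the same family. Its log2 ratio to Mir100 was -3.64 in replicate 2 and -3.05 in replicate 1, a mean of -3.34 ± 0.418.

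Mirlet7f-2 was the exception in this comparison. It had 7573 CPM in replicate 2 and 7561 CPM in replicate 1, and Mir98, 786 bases away in the same host gene, had 7158 and 8253 CPM. The log2 ratio of Mirlet7f-2 over Mir98 was 0.08 in replicate 2 and -0.13 in replicate 1, a mean of -0.02 ± 0.147. Mirlet7f-2 and Mir98 did not differ beyond the spread between the libraries. Within 100 kb, Mirlet7a-2 and Mirlet7c-1 have a further neighbour each, Mir125b-1 and Mir125b-2, which share the mature sequence of miR-125b-5p. Mirlet7a-2 had a mean log2 ratio of -0.32 ± 0.281 to Mir125b-1, and Mirlet7c-1 had 0.54 ± 0.236 to Mir125b-2. Mirlet7f-2 has Mir3113 within that distance, at 0 counts in replicate 2 and 1 count in replicate 1.

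**Figure D3:**
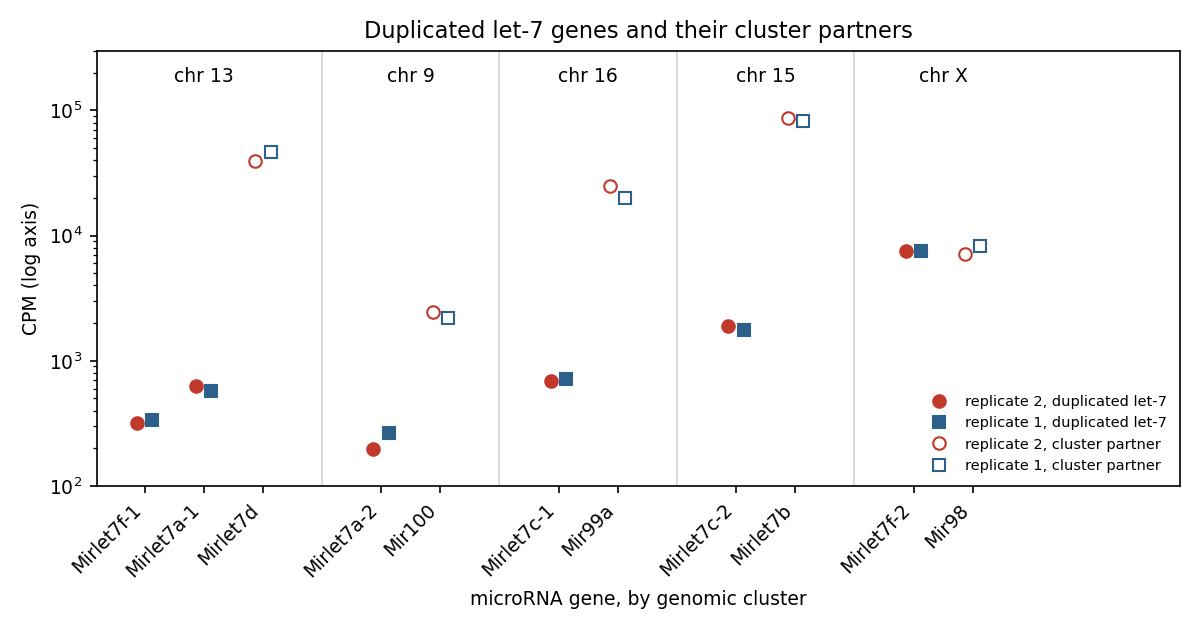
Level in CPM on a log axis of each duplicated let-7 gene (filled) and of its cluster partner with an unshared mature sequence (open), in both libraries, by chromosome. In uniquely assigned reads, Mirlet7f-2 lies at the level of Mir98, and the other 5 duplicated genes lie below their partner in both libraries.

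The libraries were then compared with each other, as replicate 2 over replicate 1 after TMM scaling, for 426 genes with at least 20 counts. Mirlet7a-2 differed most in the group, with 198 CPM in replicate 2 against 264 CPM in replicate 1 and a log2 ratio of -0.52 (95% counting interval -0.62 to -0.42; adjusted p = 1.5e-25, two-sided exact binomial test, Benjamini-Hochberg adjusted over the 426 genes). Mirlet7f-1 had a log2 ratio of -0.18 (-0.26 to -0.10; adjusted p = 2.9e-05 in the same exact test) and Mirlet7c-1 had -0.15 (-0.21 to -0.10; adjusted p = 1.1e-07 in the same exact test). Mirlet7f-2, whose interval is narrow because it has the most counts, had -0.10 (-0.12 to -0.08; adjusted p = 9.4e-32 in the same exact test). Mirlet7a-1 had 0.01 (-0.05 to 0.07) and Mirlet7c-2 had 0.00 (-0.03 to 0.03), and both missed the threshold, at adjusted p = 0.82 and 0.99 in the exact test. This test knows counting error only and compares 2 libraries, not conditions or animals.

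In all, 4 of the 6 genes passed, all 4 lower in replicate 2, where 56.1% of all tested genes passed in either direction and 30.3% were lower in replicate 2. Among genes with at least 100 counts over both libraries, which include all 6, 71.4% passed and 38.9% were lower in replicate 2. The direction depends on the scaling. With libraries scaled by their total counts, every log2 ratio is 0.10 higher than with TMM, and under that scaling Mirlet7a-1 and Mirlet7c-2 passed as higher in replicate 2, Mirlet7a-2 passed as lower, and 3 did not pass. Of all tested genes, 57% passed under that scaling, 35.2% as higher and 21.8% as lower in replicate 2. The median log2 ratio of the 6 genes was -0.13, beside -0.20 for the 6 other family genes and -0.03 for all tested genes. In size, the median absolute log2 ratio was 0.13 for the 6 genes and 0.29 for all tested genes, and Mirlet7a-2 was the 1 member above 0.29. Of the 6 other family genes, 5 passed as lower and 1, Mirlet7e, passed as higher in replicate 2.

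**Figure D4:**
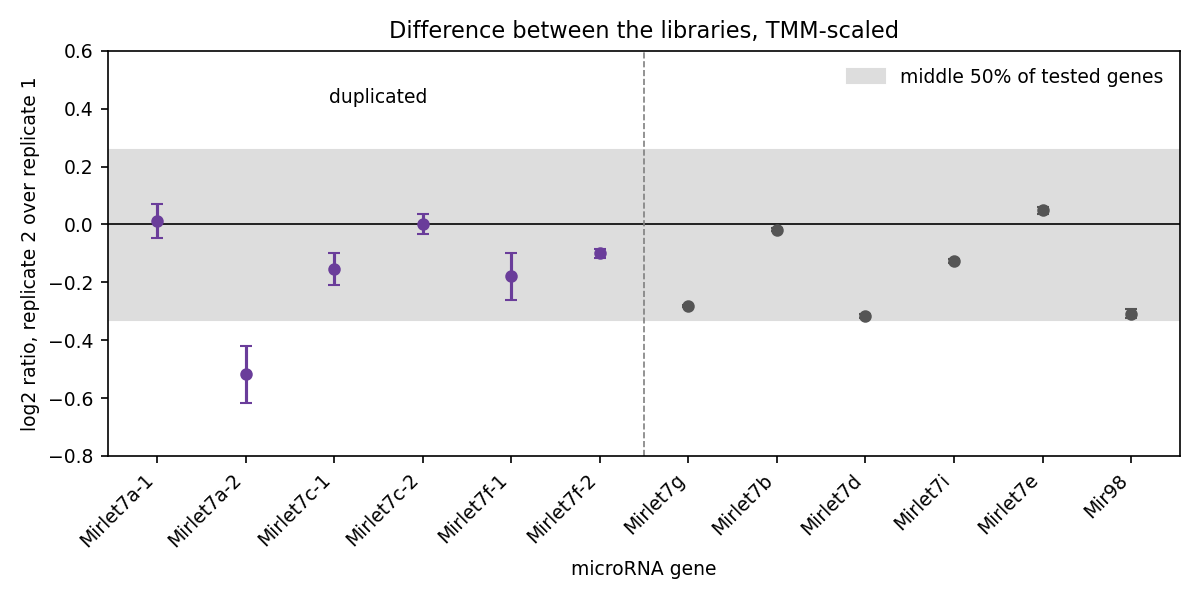
Log2 ratio of replicate 2 over replicate 1 after TMM scaling for the let-7 family genes, with exact 95% counting intervals, the duplicated genes left of the dashed line. The grey band is the middle 50% of all 426 tested genes, from -0.33 to 0.26, and Mirlet7a-2 at -0.52 is the 1 gene shown outside it.

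Outside the group, the 2 genes nearest to each member in log2(CPM + 1) over the 2 libraries were found among 420 tested genes. For Mirlet7f-2 the nearest gene was its own cluster partner Mir98, at a distance of 0.15, followed by Mir411 of the Dlk1-Dio3 region at 0.17. For Mirlet7c-2 they were Mir324 (0.06) and Mir361 (0.23), and for Mirlet7c-1 Mir203 (0.07) and Mir181c (0.10). Mirlet7a-1 lay nearest to Mir193a (0.17) and Mir485 (0.18), Mirlet7a-2 to Mir381 and Mir148a (both 0.17), and Mirlet7f-1 to Mir383 (0.12) and Mir155 (0.15). With 2 libraries, this likeness is one of level.

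Reads on the strand opposite to the genes were nearly absent. Mirlet7c-2 had 1 such count in replicate 2, and no other member had any in either library. Mirlet7f-1 is the 1 member that overlaps another microRNA gene, Gm24111 on the opposite strand at 48537825-48537921. Without regard to strand its count was 0 in both libraries, where reads over both genes are not given to either, so its level comes from the stranded counts alone.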

How the data were processed

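Small RNA below a size limit of 30 in the labels was sequenced from adrenal gland tissue, in 2 libraries of 1 group. The authors deposited raw read counts per microRNA gene, made on mm10 with GENCODE M21 per the description beside the tables. The labels' protocols name adapter trimming. Which aligner and counter were used is not given in the sources used here. A table has 3 count columns without a header, read from their values as either strand, the strand of the gene and the opposite strand, and 4 rows that name no gene. Those rows, with 54.6% of the reads in replicate 2 and 51.2% in replicate 1, were left out of library sizes.

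CPM were computed from the counts on the strand of the gene. Replicate 2 was compared with replicate 1 by exact binomial tests over all genes with at least 20 counts in both together, scaled by TMM (edgeR 4.0.16, R 4.3.3), at an adjusted p of 0.05. Log2 ratios between libraries had 0.5 counts added. The comparison was tested on simulated Poisson counts. These carry counting error only, so the run cannot show how the test behaves with other spread between libraries. Alternatives were total-count and DESeq2 1.42.0 scaling, other count minimums, either-strand counts and single libraries. Division by hairpin length and the look-up of the base after each shared sequence were added after the values were seen. Hairpins were aligned with Biopython 1.88, and the RefSeq hairpins of all 6 genes equalled the GENCODE transcripts. RefSeq mature sequences were sought in the GENCODE hairpins of all genes to find shared ones, a choice made after the values were seen. The members, lists and tests were chosen with earlier results of these data known. The genes named are the members, the let-7 family with Mir7j and Mir7k (let-7j and let-7k), microRNA genes within 10 kb or overlapping, and the 2 genes nearest in level to each member. Mir101a, Mir125b-1, Mir125b-2, Mir1961, Mir3113, Mir29b-1, Mir129-2 and Mir219a-1 were named outside this rule after their values were seen. The authors' counts carry no stated molecular identifiers, so a count is a read.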

Additional observations from a re-analysis of the deposited data

Results flagged for a closer look

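The microRNA gene Gm24111, on the strand opposite to Mirlet7f-1, had no counts on its own strand but 2102 opposite-strand counts in replicate 2 and 3082 in replicate 1, above the 3 counts that a count of 0 allows. They lie in a column that the comparisons do not use. In each library the number equals the count of Mirlet7f-1 on its own strand, so these are the reads of Mirlet7f-1 counted again for the gene opposite to it.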

How the results depend on the processing

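The number of genes that differed between the libraries was 239 of 426 and ran from 217 (counts on either strand) to 243 (scaling by total counts) over 5 alternatives. The share of tested genes depended more on the setting, because the number tested changed with the count minimum. It was 28.5% (233 of 818) with at least 1 count and 71.4% (222 of 311) with at least 100 counts. By total counts, 61.7% of the called genes were higher in replicate 2, where TMM gave 46.0%. For the members, the log2 ratio of Mirlet7f-2 turned to 0.0024 by total counts, and those of Mirlet7a-1 and Mirlet7c-2, which had not passed, turned to -6.8e-05 and -0.0099 in the counts on either strand. By total counts Mirlet7c-1 (-0.05) and Mirlet7f-1 (-0.08) no longer passed, and Mirlet7a-1 (0.11) and Mirlet7c-2 (0.10) did. The cause was not tested, beyond the shift of 0.10 that the scaling itself makes. The ratios between copies kept their direction in each library alone, from 1.13 to 1.66 for let-7a, from -1.46 to -1.31 for let-7c and from -4.57 to -4.49 for let-7f, and the let-7f ratio could not be had in the counts on either strand, where Mirlet7f-1 is at 0. The share of the duplicated genes in the let-7 counts lay between 3.51% and 3.72% in single libraries. With reads of several alignments in the denominator the levels fell, Mirlet7f-2 to 4290 CPM. No paired analysis was possible because there is 1 group. Depth limits little here, since the smallest count of a member was 1303, but reads with several alignments are 70.2 times the members' counts in replicate 2 and 65.6 times in replicate 1.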

Other observations

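Of the 348 genes that share a RefSeq mature sequence with another gene, 276 had no count in either library (79.3%), against 278 of 902 genes with an unshared mature sequence (30.8%), and the difference was not tested. Genes with a shared sequence held 1.91% of the counts in replicate 2 and 1.77% in replicate 1, where genes with an unshared mature sequence held 93.8% and 94.6%. The 6 let-7 genes alone made up 1.13% and 1.12% of all counts, most of what the genes with a shared sequence held together. Reads that match several genes equally well are not in these counts. A gene with a shared sequence can therefore lack counts while its mature product is present. The shares above do not compare expression. Among genes with at least 10 counts in both libraries, the median level was 74.7 CPM for 52 with a shared sequence. It was 65.6 CPM for 306 with an unshared one.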
